A study of Homo sapiens with 12 samples.

Results

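The zinc finger genes named ZNF that lie on chromosome 19 were examined in a human liver tumour cell line exposed to acriflavine. This dye, composed of acridine compounds, inserts between DNA bases and blocks the pairing of hypoxia-inducible factor subunits. The members were the protein-coding genes of the count table whose Ensembl identifier maps to a symbol of ZNF and a number and to chromosome 19, which gave 247 of the 63152 genes in the table and of its 19335 protein-coding genes. The other 19088 protein-coding genes served for comparison. The 3 groups were untreated or vehicle control cultures, cultures with 2.5 µM acriflavine and cultures with 5 µM acriflavine, each for 24 h and each with 4 libraries that the labels call biological replicates. One label gives the controls no treatment, while the treatment protocol names the vehicle DMSO. The cell line is labelled HepG2, an established hepatoblastoma line, and the sample descriptions of all groups name HepG2S1, a sorafenib-resistant derivative (sorafenib is a kinase inhibitor).

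Most of these genes encode proteins with an array of C2H2 zinc fingers that binds DNA, and many carry a KRAB box at the amino end. The KRAB box recruits the scaffold protein TRIM28, which brings in the histone methyltransferase SETDB1, heterochromatin proteins and the NuRD deacetylase complex. KRAB zinc finger proteins are known for silencing transposable elements, and their genes arose by repeated duplication in clusters, several of them on chromosome 19. A KRAB box was found in the predicted protein of 211 of the 247 members and none in 35, while 1 had no coding sequence to search. The members had a median of 12 C2H2 fingers, with a range of 0 to 36. The short arm held 85 members and the long arm 162.

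Library totals were 10733567 to 15116842 counts, and 0.155% to 0.175% of them fell on the 247 members. The 10 hepatocyte markers checked were all under 1 CPM (counts relative to the TMM-scaled library total) in the controls, and 7 of the 10 were under it at 5 µM. ALB, AFP and FOXA2 had 0 counts in the controls, so defining hepatocyte markers were absent from cells labelled HepG2. The summed level of all 10 markers was 3.65 to 6.45 CPM at 5 µM and 0.879 to 1.69 CPM in the controls. Most of the 5 µM level came from APOB, FGB and HNF4A, with means of 1.42, 2.04 and 1.22 CPM. ALB, AFP and FOXA2 averaged 0.0366, 0.0183 and 0.0223 CPM at 5 µM. Of 4 epithelial markers, KRT8 averaged 920 ± 58.8 CPM at 5 µM and 1400 ± 125 CPM in the controls, and KRT18 287 ± 20 and 593 ± 72.2 CPM (SD, n = 4 each). EPCAM averaged 5.88 ± 0.89 CPM at 5 µM and 3.57 ± 0.219 CPM in the controls, and CDH1 4.86 ± 0.568 and 0.359 ± 0.135 CPM. Of 5 markers of fibroblasts, blood and endothelium, COL1A2 and PECAM1 had 0 counts in the controls. COL1A1 averaged 30.9 ± 2.72 CPM at 5 µM and 22.6 ± 3.05 CPM in the controls, and PDGFRB 16.4 ± 1.13 and 4.51 ± 0.575 CPM. PTPRC averaged 2.27 ± 0.174 and 0.0391 ± 0.0781 CPM, with 2 counts over the control libraries. The summed level of the 5 was 46.6 to 54 CPM at 5 µM and 21.8 to 30.2 CPM in the controls. The part of these shifts in the results below was not tested. In bulk RNA, fewer cells of a type and less RNA per cell cannot be told apart.

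Members were transcribed about as often as other protein-coding genes, but at lower levels. Of the 247 members, 160 (64.8%) had enough counts to pass the filter on low values and were tested, against 12025 of the 19088 other protein-coding genes (63%). The share was 79.8% (206 of 258) for ZNF genes on other chromosomes and 60.2% (723 of 1201) for the other protein-coding genes of chromosome 19. It was 62.6% of the 211 members with a KRAB box and 80% of the 35 without. A mean of at least 1 CPM was reached by 150 members in the controls (60.7%), 150 at 2.5 µM (60.7%) and 154 at 5 µM (62.3%). For the other protein-coding genes these shares were 58.9%, 59.4% and 61.9%. Members with 0 counts in a group numbered 41, 33 and 32 (16.6%, 13.4% and 13%) in the same order of doses. Of the other protein-coding genes, 24.9%, 23.3% and 18.7% had 0 counts. Of the 160 tested members, 147 had at least 10 counts in each of the 12 libraries, and 153 would have passed the filter without the libraries of any 1 group. ZNF114, ZNF382, ZNF490 and ZNF585B passed it only through the 5 µM libraries, where they were high, so they had to differ, and their 5 µM calls are given as descriptions. ZNF540 reached the filter's level in 3 control, 1 2.5 µM and 0 5 µM libraries, and ZNF615 in 2, 2 and 0. Both needed their control and 2.5 µM libraries to pass, which favours lower values at 5 µM, so any 5 µM calls of theirs are descriptions too. ZNF836 (2, 1 and 2 libraries) needed its control and 5 µM libraries.

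The 87 members that were not tested had a median of 3 counts over the 12 libraries together and at most 101, and 18 members had 0 counts in every library. Among the untested was ZNF93, known to repress LINE-1 elements, with 23, 23 and 12 counts over the control, 2.5 µM and 5 µM libraries. ZNF568, whose mouse counterpart represses a placental transcript of Igf2, had 1, 2 and 1 counts in those groups. ZNF649 had 0 counts in all libraries. These 3 genes did not pass the filter, so no change of theirs was tested. The tested members had a median level of 6.79 CPM over all libraries, against 34.4 CPM for the other tested protein-coding genes and 12.6 CPM for ZNF genes elsewhere. Per kilobase of exon the medians were 1.26, 6.42 and 2.59 CPM for the same sets. The 3 members with the highest mean level were ZNF146, ZNF787 and ZNF587.

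The summed level of the 247 members changed little between doses. It was 1719, 1757, 1646 and 1716 CPM in the control libraries, 1699, 1754, 1724 and 1633 CPM at 2.5 µM and 1569, 1588, 1619 and 1575 CPM at 5 µM. All 5 µM libraries lay below all control libraries on this scale, by a small margin, and the 2.5 µM libraries overlapped the controls. The order depended on the scaling: with library totals alone the means were 1640 CPM in the controls, 1686 CPM at 2.5 µM and 1672 CPM at 5 µM. ZNF genes on other chromosomes summed to 4674, 5175 and 5259 CPM with TMM scaling (trimmed mean of M-values, used throughout), in the order of the doses.

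At 5 µM, 38 of the 160 tested members (the 4 that passed the filter only through 5 µM among them) rose and 65 fell against control (edgeR, quasi-likelihood F test, threshold of 0.05 for the adjusted p). The background was high: 78.2% of all 16839 genes tested were called, and 81.7% of the other protein-coding genes (40.4% higher and 41.3% lower). Of the members 64.4% were called (23.8% higher and 40.6% lower), and of ZNF genes on other chromosomes 71.8% (38.8% higher and 33% lower). Changes of at least 2-fold were called for 10 members upward and 12 downward (13.8% of 160), against 26.4% of all genes and 24.4% of the other protein-coding genes. The 4 members that passed the filter only through 5 µM were among the 10. The 4 and 4 values did not overlap for 79 members (49.4%), against 70.8% of all genes. The median log2 fold change of the members was -0.07 with quartiles of -0.49 and 0.21, and that of the other protein-coding genes was -0.02 with quartiles of -0.53 and 0.53. The upper quartile thus lay nearer to 0 for the members, and the lower quartiles were close to each other. With library totals in place of TMM, the median of all genes moved to 0.12 and that of the members to 0.07, and 49 members were higher and 42 lower, so that 53.8% of calls were higher against 36.9%. Normalization factors were 1.05 to 1.06 at 5 µM and 0.941 to 0.974 in the controls.

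**Figure D1:**
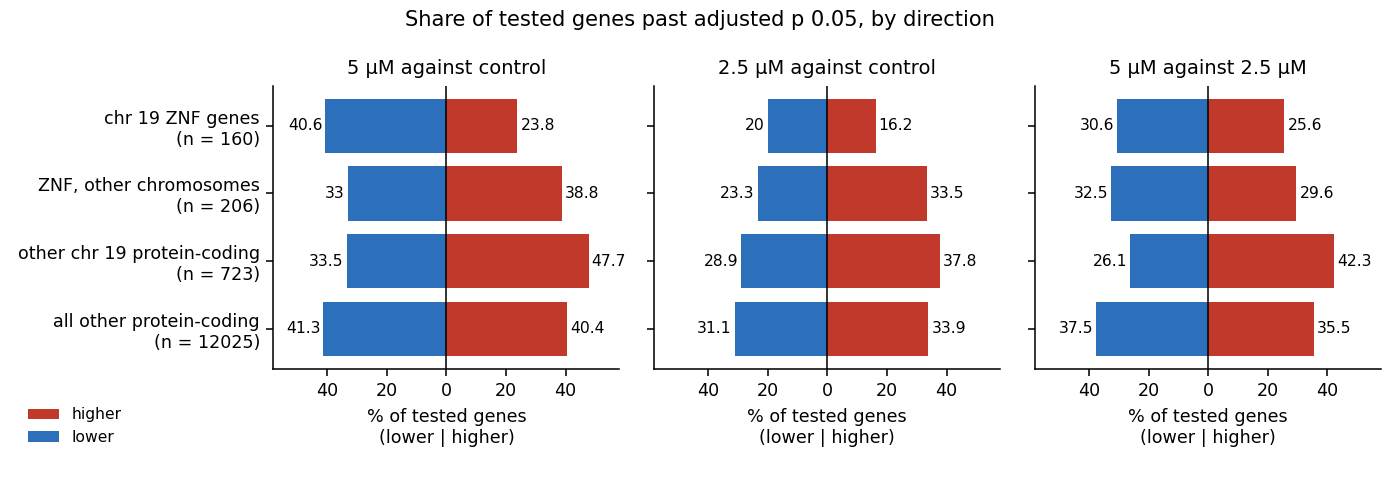
Share of tested genes called higher (red, right) or lower (blue, left) by edgeR (threshold of 0.05 for the adjusted p), in percent of the tested genes of each set, for the 3 comparisons. Chromosome 19 ZNF genes (top row) had 23.8% higher and 40.6% lower at 5 µM against control, and all other protein-coding genes 40.4% and 41.3%.

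The lower dose gave fewer calls. At 2.5 µM, 26 members rose and 32 fell against control (36.2% of 160) in edgeR's test, against 59.1% of all genes and 64.9% of the other protein-coding genes (33.9% higher and 31.1% lower). Of ZNF genes on other chromosomes, 56.8% were called at 2.5 µM against control and 62.1% between the doses. Only ZNF497 rose, and only ZNF784, ZNF30 and ZNF599 fell, by 2-fold or more among the tested members, while 10.1% of all genes passed that size. The values did not overlap for 46 members (28.7%), against 50.5% of all genes and 56.1% of the other protein-coding genes. Between the doses, 41 members were higher and 49 lower at 5 µM than at 2.5 µM (56.2%), against 68.4% of all genes and 73.1% of the other protein-coding genes (35.5% higher and 37.5% lower). The values did not overlap for 74 members (46.2%), against 62.1% of all genes and 67.3% of the other protein-coding genes. With library totals as the scaling, these were 49 and 36, so that 57.6% of calls were higher against 45.6%. Of the 160 tested members, 36 were called in none of the 3 comparisons.

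Members were also set beside genes of similar level, since calls are harder to reach at low counts. In the middle of the members' range of mean level (10th to 90th percentile, 128 members and 3808 other protein-coding genes), 20.3% of members were higher and 43.8% lower at 5 µM against control, against 41% and 38.1% of the others. At 2.5 µM the shares were 14.8% and 22.7% of members and 27.3% and 33.2% of the others. At 5 µM the gap in the share higher was widest among the least expressed members. In the lowest of 4 equal classes by level, 11 of 40 members were higher and 11 lower at 5 µM, with a median log2 fold change of 0.00027, while 57.8% of 1201 other genes were higher and 19.3% lower, with a median of 0.98. Genes near the filter can pass it through the group in which they are high, which holds for the other genes too. No test was made of these differences between sets, because genes of a set are not independent replicates.

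ZNF784 showed the largest fall. ZNF784 (ENSG00000179922), a C2H2 gene of the long arm with 6 fingers and no KRAB box found, had 3.83, 4.03, 4.83 and 5.75 CPM in the controls, 1.51, 1.83, 1.16 and 1.14 CPM at 2.5 µM and 0.446, 0.429, 0.366 and 0.25 CPM at 5 µM. The 3 groups did not overlap and their order followed the dose. The log2 fold change was -3.63 ± 0.26 (SE) at 5 µM against control and -1.69 ± 0.19 at 2.5 µM against control, with adjusted p of 2.12e-14 and 4.29e-09 in edgeR. This was 12.4-fold lower at 5 µM, from 19 counts over the 4 libraries against 226 in the controls.

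ZNF30, a KRAB gene with 16 fingers just beyond the centromere on the long arm, also fell at each dose. ZNF30 (ENSG00000168661) had 6.09, 6.01, 7.34 and 6.6 CPM in the controls, 2.65, 2.46, 2.39 and 2.35 CPM at 2.5 µM and 0.891, 1.2, 1.25 and 1.37 CPM at 5 µM. Again no 2 groups overlapped. The log2 fold change was -2.43 ± 0.17 at 5 µM and -1.39 ± 0.15 at 2.5 µM against control, with edgeR adjusted p of 9.88e-15 and 5.63e-10. Its neighbour ZNF599 (ENSG00000153896) had a mean of 5.18 ± 0.77 CPM in the controls, 2.28 ± 0.34 CPM at 2.5 µM and 2.33 ± 0.305 CPM at 5 µM (SD, n = 4 each). ZNF599 was thus lower at both doses against control, while the doses did not differ in the test (log2 fold change 0.04 ± 0.19, edgeR adjusted p = 0.87).

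The most abundant member was also among those that fell. ZNF146, which encodes a short protein made almost wholly of zinc fingers and was at 17.1 CPM per kilobase on average, had 101, 111, 79.7 and 91 CPM in the controls, 75.7, 84.1, 84.9 and 65.2 CPM at 2.5 µM and 37, 38.6, 36.6 and 45.6 CPM at 5 µM. The 5 µM libraries lay below all others, while the 2.5 µM libraries overlapped the controls. ZNF260, a similar protein encoded nearby with 13 fingers and no KRAB box found, had a mean of 6.05 ± 0.8 CPM at 5 µM and 16.2 ± 3.81 CPM in the controls. The log2 fold changes at 5 µM were -1.27 ± 0.11 for ZNF146 and -1.41 ± 0.14 for ZNF260 (edgeR adjusted p of 8.61e-08 and 7.13e-10). Both were also called lower at 2.5 µM against control, at -0.31 ± 0.11 and -0.47 ± 0.13 (edgeR adjusted p of 0.0221 and 0.00231). That call held in 17 of 21 alternatives for ZNF146 and in 21 of 21 for ZNF260. At 5 µM, ZNF121 fell by 1.25 ± 0.18 on the log2 scale, ZNF724 by 1.24 ± 0.2 and ZNF486 by 1.21 ± 0.31, all against control in the same test. ZNF121 had 6.15, 6.53, 4.32 and 3.5 CPM at 5 µM and 12, 13.7, 10.5 and 11.3 CPM in the controls. Of the 75-base windows of ZNF724, 42.8% also occur in another annotated gene, so its counts are uncertain.

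**Figure D2:**
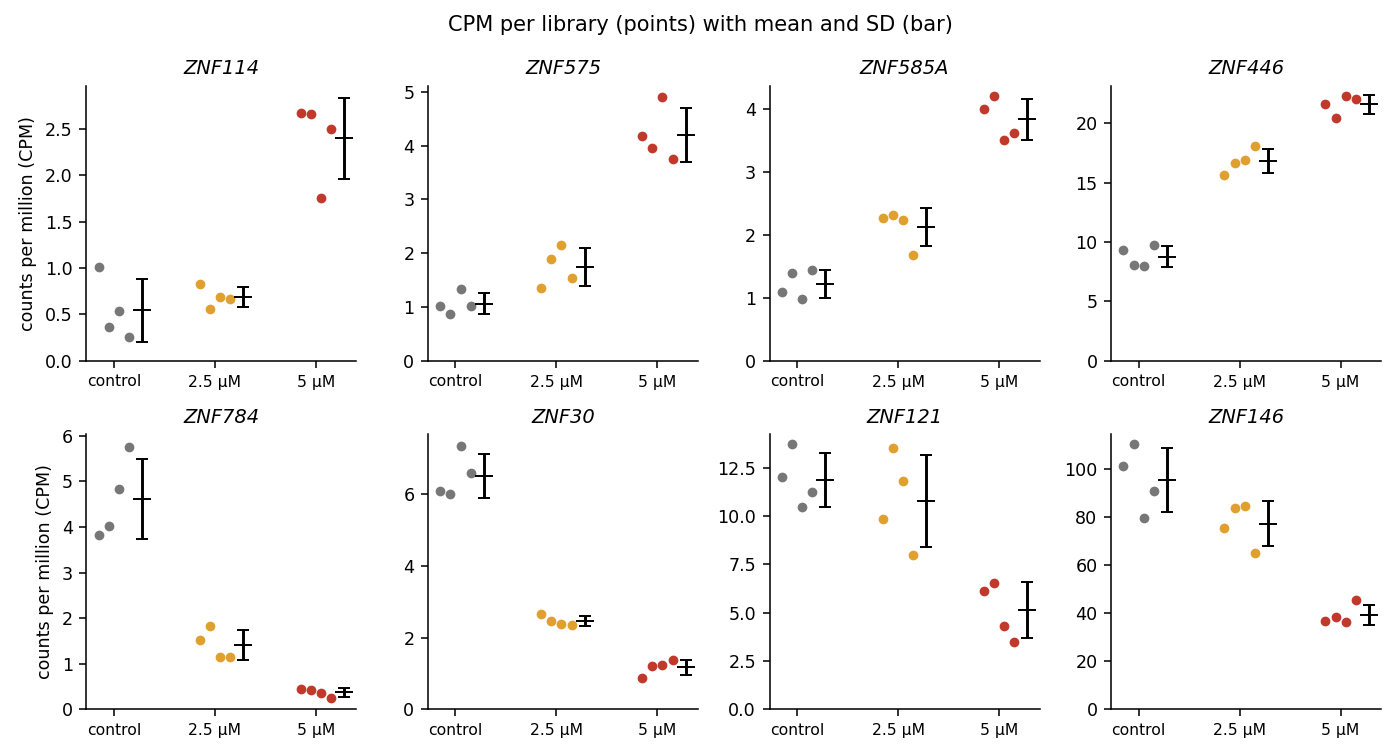
Level of 8 chromosome 19 ZNF genes in CPM (y axis from 0) in each of 4 control, 4 2.5 µM and 4 5 µM libraries, as points, with the mean and SD as bars beside them. The upper 4 genes were higher and the lower 4 lower at 5 µM than in the controls, without overlap of the 4 and 4 values. For ZNF121 and ZNF146 the 2.5 µM libraries overlapped the controls, though edgeR called ZNF146 lower at 2.5 µM.

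The increases were led by genes of low level. ZNF114 (ENSG00000178150), a KRAB gene with 3 fingers, had 1.02, 0.366, 0.537 and 0.254 CPM in the controls, 0.833, 0.563, 0.694 and 0.672 CPM at 2.5 µM and 2.67, 2.66, 1.76 and 2.5 CPM at 5 µM. The 5 µM libraries stood apart, and the log2 fold change against control was 2.11 ± 0.29. ZNF575 (ENSG00000176472) had 1.02, 0.879, 1.34 and 1.02 CPM in the controls, 1.36, 1.9, 2.16 and 1.55 CPM at 2.5 µM and 4.19, 3.95, 4.91 and 3.75 CPM at 5 µM. Here no groups overlapped, and the log2 fold change was 1.98 ± 0.2 at 5 µM and 0.72 ± 0.24 at 2.5 µM (edgeR adjusted p of 1.28e-10 and 0.0113). ZNF528 rose 2.27-fold at 5 µM, with a log2 fold change of -0.03 ± 0.24 at 2.5 µM that did not pass the test. ZNF490 averaged 1.54 ± 0.301 CPM at 5 µM and 0.581 ± 0.103 CPM in the controls. ZNF653, which encodes a repressor of the nuclear receptor SF-1, rose 2.42-fold, and ZNF416 rose 2.07-fold at 5 µM. Of the windows of ZNF490, 59.8% are shared with another annotated gene.

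ZNF446 and ZNF324, the last members before the end of the long arm, rose at both doses. ZNF446 had 9.3, 8.06, 7.97 and 9.73 CPM in the controls, 15.7, 16.7, 16.9 and 18.1 CPM at 2.5 µM and 21.6, 20.4, 22.3 and 22.1 CPM at 5 µM, with no overlap. ZNF324 averaged 15.8 ± 0.84 CPM at 5 µM and 8.4 ± 1.09 CPM in the controls. The log2 fold changes at 5 µM were 1.3 ± 0.09 and 0.92 ± 0.1 (edgeR adjusted p of 1.06e-14 and 5.66e-10). The 2 annotated transcripts overlap, with 48.2% of the windows of ZNF446 and 30.3% of those of ZNF324 held by another gene too, so reads of the pair may not have been told apart. ZNF497, close by, had 1.89, 2.18, 1.93 and 1.88 CPM at 2.5 µM and 0.937, 0.806, 1.07 and 1.1 CPM in the controls. Of its windows, 35.5% overlap another gene, mostly the antisense RNA A1BG-AS1, and the strand setting of the counting is not known.

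A run of neighbours on the long arm held ZNF585B, ZNF382 and ZNF585A, all higher at 5 µM, next to falls of ZNF260 and ZNF146. ZNF585A had 1.09, 1.39, 0.985 and 1.44 CPM in the controls, 2.27, 2.32, 2.23 and 1.68 CPM at 2.5 µM and 4.01, 4.21, 3.52 and 3.62 CPM at 5 µM, with a log2 fold change of 1.62 ± 0.19 at 5 µM (edgeR adjusted p = 3.87e-09). ZNF585B, a near copy beside it that was named after its values were seen, had 0.156, 0.22, 0.179 and 0.169 CPM in the controls, 0.227, 0.492, 0.462 and 0.269 CPM at 2.5 µM and 1.6, 1.37, 1.83 and 2 CPM at 5 µM. All 5 µM libraries of the pair lay above all others. The log2 fold change of ZNF585B was 3.18 ± 0.36 at 5 µM against control, with 91 counts over the 5 µM libraries and 9 over the control libraries. ZNF382, known as a tumour suppressor that is often methylated in carcinomas, had 0.0781, 0.147, 0.0895 and 0.677 CPM in the controls, 0.606, 0.352, 0.154 and 0.47 CPM at 2.5 µM and 1.69, 1.63, 1.39 and 1.75 CPM at 5 µM. Only 5 µM stood clear of the other groups, and 1 control library was far above the other 3. The log2 fold change of ZNF382 was 2.69 ± 0.41 at 5 µM against control, and 3.81 without control replicate 4. Both genes passed the filter only through the 5 µM libraries. Of the windows of ZNF585A 13.9% and of ZNF585B 21.3% are shared with other genes, mostly with each other, so reads may have been split between the copies.

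The promoters of ZNF585A and ZNF585B, which were both higher at 5 µM, and of ZNF784, which fell most, are shown to let them be compared. The windows hold 300 bases around the annotated start, most of them upstream, on the gene's own strand and come from RefSeq (GRCh38.p14, minus strand, chr19:37172646-37172945, chr19:37210487-37210786 and chr19:55624517-55624816). Capitals mark CCGGAAG (the core of an ETS factor motif), CCAAT (the CCAAT box) and GGGCGG (a GC box), each read on both strands.
ZNF585A: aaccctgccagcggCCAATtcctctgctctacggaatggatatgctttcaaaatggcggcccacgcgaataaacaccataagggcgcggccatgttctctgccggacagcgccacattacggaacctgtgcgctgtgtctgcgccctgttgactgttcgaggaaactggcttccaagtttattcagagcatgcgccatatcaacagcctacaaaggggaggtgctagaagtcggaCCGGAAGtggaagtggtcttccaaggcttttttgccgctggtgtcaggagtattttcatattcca
ZNF585B: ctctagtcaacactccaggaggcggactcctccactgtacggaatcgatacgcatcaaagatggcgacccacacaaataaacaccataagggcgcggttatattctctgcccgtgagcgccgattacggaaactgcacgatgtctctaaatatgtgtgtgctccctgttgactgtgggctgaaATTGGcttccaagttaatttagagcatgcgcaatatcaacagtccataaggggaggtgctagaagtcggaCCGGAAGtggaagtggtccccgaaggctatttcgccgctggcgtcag
ZNF784: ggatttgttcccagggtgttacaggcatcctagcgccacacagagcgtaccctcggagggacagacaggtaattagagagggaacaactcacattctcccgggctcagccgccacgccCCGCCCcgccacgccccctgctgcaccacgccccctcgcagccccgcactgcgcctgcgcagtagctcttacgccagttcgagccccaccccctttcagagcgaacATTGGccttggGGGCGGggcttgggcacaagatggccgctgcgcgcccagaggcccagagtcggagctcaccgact

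The windows of ZNF585A and ZNF585B share a run of 41 bases that holds CCGGAAG, while ZNF784 has 2 GC boxes, a CCAAT box and no CCGGAAG. RefSeq windows were found for 214 of the 247 members. CCGGAAG occurred in 99 of them (46.3%), against 14.2% of 15842 protein-coding promoters and 33.6% of those of ZNF genes elsewhere. CCAAT occurred in 53.7% of the members' windows and 36.4% of all, and GGGCGG in 68.2% and 58.5%. By direction at 5 µM, CCGGAAG was in 16 of 33 members that rose (48.5%), 30 of 61 that fell (49.2%) and 20 of 50 that did not pass (40%). A match is a run of letters and not a measured binding site.

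Between the arms the share of members that rose differed, while the share that fell was similar. On the short arm 3 of 45 tested members rose (6.67%) and 19 fell (42.2%) at 5 µM against control, with a median log2 fold change of -0.24. On the long arm 35 of 115 rose (30.4%) and 46 fell (40%), with a median of 0.02. ZNF490 was among the 3, and ZNF114, ZNF382 and ZNF585B were among the 35. These 4 passed the filter only through the 5 µM libraries, so they had to be higher. Over all genes 38.7% were higher and 39.4% lower in the same edgeR test. Among the neighbouring groups with at least 5 tested members, the pericentromeric group from ZNF101 to ZNF254 had 37 members, 15 of them tested, of which 1 rose and 8 fell, with a median of -0.49. On the other side of the centromere, in the group from ZNF302 to ZNF792, 4 of 5 fell and none rose, and the median was -0.6. At the end of the long arm, from ZNF264 to ZNF446, 12 of 32 rose and 10 fell, with a median of 0.08, which turned to -0.11 with a correction for GC content. The group from ZNF565 to ZNF573, with the ZNF585 pair, held calls in both directions: 5 of 16 rose and 8 fell, 3 and 4 of them by at least 2-fold. Among these 3 were ZNF382 and ZNF585B, which passed the filter only through the 5 µM libraries, so they had to be higher. ZNF540, also of this group, reached the filter's level in no 5 µM library. With library totals as scaling, the ZNF101 to ZNF254 and ZNF302 to ZNF792 medians were still below 0, at -0.35 and -0.47.

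At 2.5 µM, where 30.7% of all genes were higher and 28.5% lower than in the controls, the groups had fewer calls near the centromere. In the group from ZNF101 to ZNF254, 1 of 15 rose and 1 fell against control, and the median was -0.14. From ZNF302 to ZNF792, 2 of 5 fell, namely ZNF30 and ZNF599. From ZNF264 to ZNF446, 8 of 32 rose and 4 fell. From ZNF175 to ZNF331, 2 of 26 rose and 8 fell, ZNF432 the most, with a mean of 5.83 ± 0.6 CPM at 2.5 µM and 11.1 ± 0.92 CPM in the controls. ZNF432 was higher again at 5 µM than at 2.5 µM, at 7.87 ± 1.05 CPM (log2 fold change 0.44 ± 0.12, edgeR adjusted p = 0.00174). The distance that joins neighbours into groups was set after the fold changes were known, so the groups get no test.

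**Figure D3:**
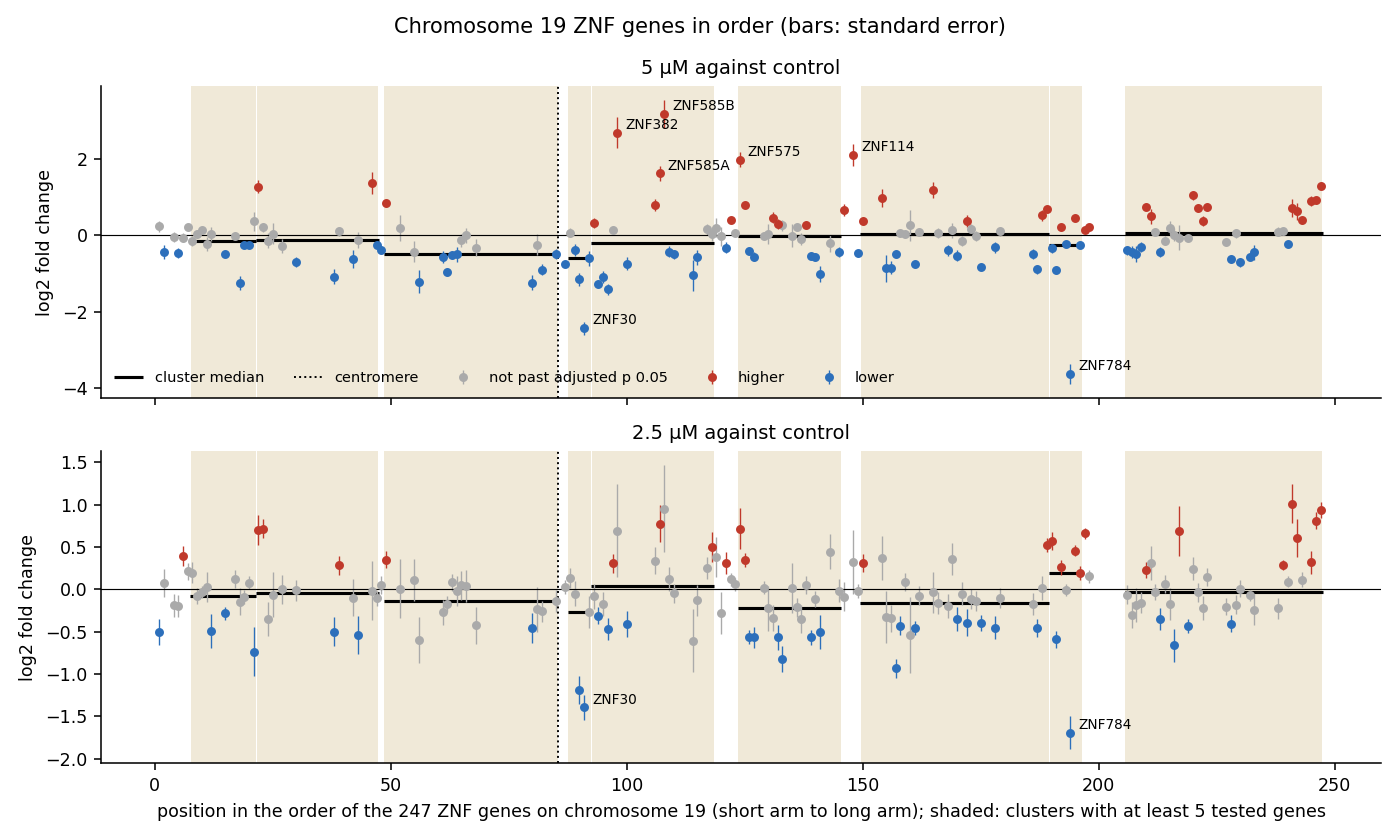
Log2 fold change with its standard error (y axis) of the 160 tested members in their order along chromosome 19 (x axis, position among the 247 members, short arm left of the dotted centromere), at 5 µM against control (top) and 2.5 µM against control (bottom). Colour gives the call and black lines the medians of shaded neighbouring groups. At 5 µM, 3 of 45 tested short-arm members were higher (6.67%) and 19 lower (42.2%), against 30.4% and 40% of long-arm members. ZNF490 on the short arm and ZNF114, ZNF382 and ZNF585B on the long arm passed the filter only through the 5 µM libraries.

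Counts of calls are given by KRAB box and finger number, beside 38.7% higher and 39.4% lower over all genes at 5 µM and 30.7% and 28.5% at 2.5 µM. At 5 µM against control 26 of 132 members with the box rose and 53 fell, with a median log2 fold change of -0.08, and 12 of 28 without it rose and 12 fell, with a median of 0.08. The KRAB median turned to 0.05 with library totals as scaling, where the median of all genes was 0.12. The median without the box turned to -0.15 with a correction for GC content, where that of all genes was -0.13. Of ZNF genes on other chromosomes with the box, 30 of 98 rose and 36 fell at 5 µM, with a median of -0.1. Without the box 49 of 107 rose and 32 fell, with a median of 0.11. Calls were made for 59.8% of members with the box and 67.3% of such genes elsewhere at 5 µM. At 2.5 µM against control these shares were 32.6% and 45.9%, and between the doses 53% and 52%. By finger number, 18 of 46 members with up to 9 fingers rose and 13 fell at 5 µM against control. With 10 to 14 fingers 12 of 66 rose and 30 fell, and with 15 or more 8 of 48 rose and 22 fell. At 2.5 µM the counts were 15 and 10, 6 and 11, and 5 and 11 for the same classes.

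GC content of the exons moved with the fold change. Members had a median GC content of 42.5%, against 48.5% for the other tested protein-coding genes. Of 104 members under 45% GC, 14 rose and 47 fell at 5 µM against control, with a median of -0.22. Among them, 5 of the 6 without a KRAB box fell, with a median of -1.1, and 42 of the 98 with the box fell, with a median of -0.15. Of 22 members at 55% GC or more, 13 rose and 6 fell, with a median of 0.21. Other protein-coding genes went the same way: 31.9% rose and 48% fell under 45% GC, and 46.8% rose and 36.7% fell at 55% or more. Spearman's rho between GC content and the log2 fold change at 5 µM was 0.372 over the 160 members and 0.137 over the 12025 others. At 2.5 µM it was 0.273 over the members and -0.01 over the others. The points share 12 libraries, and members share sequence, so these are descriptions. With a per-library correction for GC content 37 members were higher and 64 lower at 5 µM, and the members' median minus that of the other genes was -0.0042, against -0.05 without it. The correction moved the median of all genes at 5 µM against control from -0.01 to -0.13, so single values under it carry that shift.

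**Figure D4:**
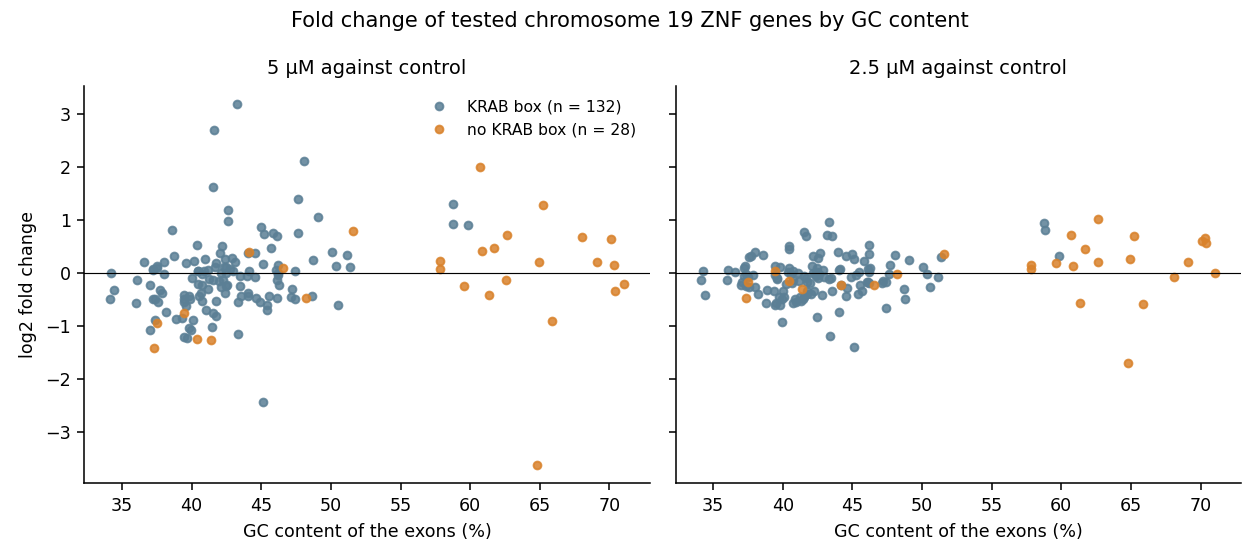
Log2 fold change of the 160 tested members (y axis) by GC content of their exons in percent (x axis), at 5 µM against control (left) and 2.5 µM against control (right), with members with a KRAB box in blue and without in orange. At 5 µM, 13 of 22 members at 55% GC or more were higher, and 47 of 104 members under 45% were lower.

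Members with a known role in transposable element control changed modestly or not at all in the test. ZNF91, which represses SVA elements, had 1.87, 2.57, 1.16 and 1.27 CPM in the controls, 1.21, 1.2, 2.39 and 1.21 CPM at 2.5 µM and 1.96, 1.12, 1.25 and 1.62 CPM at 5 µM. All groups overlapped, and the log2 fold change at 5 µM was -0.24 ± 0.27 (edgeR adjusted p = 0.429). ZNF611, which also binds SVA elements, was at 6.51 ± 0.46 CPM at 5 µM and 7.13 ± 1.63 CPM in the controls (edgeR adjusted p = 0.342). ZNF587 and its neighbour ZNF417, repressors of the endogenous retrovirus HERVK, were lower at 5 µM by 0.56 ± 0.07 and 0.44 ± 0.19 on the log2 scale. The call of ZNF417 (edgeR adjusted p = 0.0388) held in 11 of 21 alternatives and ended under 3 other scalings, both other filters, DESeq2, a fit of 2 groups and without control replicate 1 (-0.34) or 5 µM replicate 2 (-0.42) or 4 (-0.35), and 30.4% of its windows are shared, mostly with ZNF587. ZNF808, a primate gene needed for pancreas development, fell by 0.38 ± 0.15 on the log2 scale. Its call ended in DESeq2, with library totals as scaling, and without control replicate 2 (-0.31) or 5 µM replicate 3 (-0.33).

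Other members with known partners or targets split in both directions. ZNF274, which recruits SETDB1 to the 3′ ends of zinc finger genes, had 40.4, 39.2, 40.7 and 39.9 CPM in the controls, 49.4, 50.6, 45.5 and 50.3 CPM at 2.5 µM and 44.3, 42.5, 44.4 and 42.5 CPM at 5 µM. It was higher at 2.5 µM against control (log2 fold change 0.29 ± 0.06, edgeR adjusted p = 8.71e-05), and at 5 µM the difference of 0.12 ± 0.06 did not pass (edgeR adjusted p = 0.0794). That difference passed as higher under 5 alternatives (RLE, upper quartile and library size scaling, the stricter filter and DESeq2, with adjusted p of 0.000309 to 0.0357). It passed as lower, at -0.15, with a correction for GC content (edgeR adjusted p = 0.0134), where the median of all genes was -0.13. ZNF331, an imprinted gene, rose to 35 ± 4.19 CPM at 5 µM, against 21.4 ± 1.39 CPM in the controls. ZNF350 (ZBRK1), a partner of BRCA1 in repression of GADD45A, rose 1.97-fold, and ZNF420 (Apak), an inhibitor of p53, rose 1.75-fold at 5 µM (edgeR adjusted p of 0.000398 and 1.59e-05). ZNF473, which acts in the 3′ end processing of histone mRNAs, fell to 18.6 ± 1.24 CPM at 5 µM, against 25.9 ± 2.49 CPM in the controls. ZNF675 (TIZ), an inhibitor of TRAF6 signalling, fell to 4.31 ± 0.41 CPM, against 7.95 ± 0.68 CPM.

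The remaining members described include several GC-rich ones without a KRAB box found. ZNF580 had 44.6 ± 2.8 CPM at 5 µM and 32.5 ± 0.57 CPM in the controls, and it was as high at 2.5 µM, at 44.5 ± 2.66 CPM. ZNF296, known from pluripotent cells, averaged 6.33 ± 0.8 CPM at 5 µM and 3.98 ± 1 CPM in the controls, a log2 fold change of 0.67 ± 0.16 (edgeR adjusted p = 0.000273). ZNF787 peaked at the lower dose: it had 50.8, 46.5, 56.3 and 61.4 CPM in the controls, 89.7, 85.6, 80.8 and 83.4 CPM at 2.5 µM and 61.7, 57.8, 58.9 and 59.2 CPM at 5 µM. It was higher at 2.5 µM against control by 0.66 ± 0.06, and the smaller difference at 5 µM (0.15 ± 0.07, edgeR adjusted p = 0.041) held in 9 of 21 alternatives, and leaving out any of 10 single libraries, all but control replicate 4 and 2.5 µM replicate 3, ended it at values of 0.07 to 0.16. ZNF444 rose by 0.21 ± 0.08 at 5 µM and lost its call without control replicate 2 (0.16) or 3 (0.18) or 5 µM replicate 4 (0.18). With a correction for GC content its difference turned to -0.08, where the median of all genes was -0.13. ZNF224, a partner of WT1 with 18 fingers and a KRAB box, did not pass at either dose against control. It was 1.34-fold higher at 5 µM than at 2.5 µM. At 5 µM against control its difference of 0.21 ± 0.11 (edgeR adjusted p = 0.0704) passed as higher in 7 of 21 alternatives. At 2.5 µM its difference of -0.21 ± 0.11 (edgeR adjusted p = 0.0984) passed as lower in 3 of 21.

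The genes through which KRAB proteins silence chromatin were called at 5 µM in about the same shares as all genes. Of 31 tested corepressor genes, 12 rose (38.7%) and 14 fell (45.2%) at 5 µM against control, with a median log2 fold change of -0.03. Over all genes edgeR called 38.7% higher and 39.4% lower. At 2.5 µM 14 rose (45.2%) and 7 fell (22.6%), against 30.7% and 28.5% of all genes. TRIM28 had 437, 417, 436 and 393 CPM at 5 µM and 470, 437, 518 and 506 CPM in the controls, a log2 fold change of -0.2 ± 0.05 (adjusted p = 0.0009), and its call ended with library totals as scaling (-0.06). SETDB1 averaged 75.4 ± 1.15 CPM at 5 µM and 63.3 ± 3.6 CPM in the controls (log2 fold change 0.25 ± 0.05, edgeR adjusted p = 8.58e-05). Its difference was -0.01 with a correction for GC content, where the median of all genes was -0.13. The NuRD subunit GATAD2A rose to 260 ± 4.97 CPM at 5 µM, against 123 ± 6.8 CPM in the controls, while the NuRD histone chaperone RBBP4 fell to 57.8 ± 1.4 CPM, against 109 ± 1.85 CPM. PPHLN1, a subunit of the HUSH silencing complex, rose by 0.71 ± 0.05, and the heterochromatin protein gene CBX1 fell by 0.63 ± 0.05 on the log2 scale. Of other HUSH genes in the list, FAM208A fell by 0.83 ± 0.08 and MPHOSPH8 did not pass the test (-0.03 ± 0.09).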

How the data were processed

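Poly-A RNA of 12 cultures was made into TruSeq Stranded mRNA libraries and sequenced on a NextSeq500, per the labels' protocols. What the authors deposited is a single matrix of raw counts for Ensembl genes, without normalization. Per the submitters' processing notes, the build was GRCh37 and the named tools, listed without roles, include featureCounts 1.4.6, STAR 2.4.1d, Bowtie2 2.2.4 and, among others, edgeR 3.8.6. How strand and multi-mapping reads were handled, and which annotation release was counted, is not given in the sources used here.

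The members and all gene lists were chosen with earlier results of these data known. Symbols, gene class, chromosome and gene order came from GENCODE 29 (GRCh38), which matched 51989 identifiers, so gene coordinates are not printed. Genes passing filterByExpr (16839) were fitted in edgeR 4.0.16 (R 4.3.3) with TMM scaling, robust glmQLFit and glmQLFTest, all 12 libraries and 3 groups, 9 residual degrees of freedom, and Benjamini-Hochberg adjustment over all genes. Standard errors were taken as |log2 fold change| over the root of F. CPM uses TMM-scaled totals. The labels call the replicates biological without saying how the cultures were separated, so p-values measure the spread between these cultures. No replicate pair was identical or within sampling noise, with chi-square values of 1.72 to 5.78 per degree of freedom.

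KRAB boxes were found with a profile (pyhmmer 0.12.3, largest E value 0.0001) and C2H2 fingers by pattern in translated GENCODE coding sequences, in place of RefSeq proteins, and divergent boxes can be missed. Shared sequence is the share of 75-base transcript windows present in another gene. Neighbours whose starts lie within 400000 bases formed groups. GC was corrected by a loess fit per library. Named genes were, among those with no overlap, a mean log2 CPM not below 0 and an adjusted p under 0.05, the 8 largest changes each way at 5 µM against control and the 4 of each other comparison, then the 3 highest levels, 20 members with a known role, and 6 corepressor genes: TRIM28, SETDB1 and the 4 with the smallest p. Of 32 corepressor genes listed, 31 were matched. FAM208A and MPHOSPH8 were named after their values were seen, to stand beside PPHLN1. Alternatives were other scalings and filters, DESeq2 1.42.0, a replicate block, fits of 2 groups, the GC correction and leaving out each library. The fit was also run on simulated data in which few genes were changed, so that run does not bear on the choice of scaling.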

Additional observations from a re-analysis of the deposited data

Results flagged for a closer look

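Among 117 groups of 4 values of the named members, 8 held a library apart from the rest by Dixon's criterion, and chance flags about 1 in 20 groups. ZNF91 had 2.39 CPM in 2.5 µM replicate 3, where the next value was 1.21. ZNF382 had 0.677 CPM in control replicate 4, where the next value was 0.147. ZNF808 had 5.57 CPM in control replicate 2, above 4.61. ZNF497 had 2.18 CPM in 2.5 µM replicate 2, above 1.93. ZNF585A had 1.68 CPM in 2.5 µM replicate 4, below 2.23. ZNF296 had 2.49 CPM in control replicate 2, below 4.37. ZNF568 had 0.0846 CPM in control replicate 4 and 0.0891 CPM in 5 µM replicate 1, each from 1 count where the other 3 libraries had 0.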

How the results depend on the processing

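With at least 1.5-fold required, 23 members were higher and 27 lower at 5 µM against control, 10 and 8 at 2.5 µM against control, and 20 and 17 at 5 µM against 2.5 µM. The count lower at 5 µM was 42 with library size scaling. Leaving out 1 library at a time gave 33 to 39 higher and 55 to 66 lower at 5 µM, 18 to 25 and 24 to 37 at 2.5 µM, and 35 to 42 and 42 to 51 between the doses.

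The members' median minus that of other genes was -0.05 at 5 µM, -0.0835 at 2.5 µM and -0.0599 between doses. It was -0.113, -0.0108 and -0.128 with no low count filter, -0.0042 and -0.022 with GC correction at 5 µM and between doses, and -0.0245 and -0.169 against other genes at the members' levels at 2.5 µM and between doses. Without 1 library it ranged from -0.107 to -0.0157, -0.125 to -0.0594 and -0.116 to -0.0134. The share expressed was 92.7% when 1 count in a group sufficed. The summed level in the controls was 1640 CPM by library size, and at 5 µM it was 1613, 1626 and 1672 CPM by RLE, upper quartile and library size. The cause of these moves was not tested.

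Replicate numbers did not pair the cultures: same-numbered libraries correlated by -0.13 to 0.07 in their deviations from the group means. With replicate number as a block, 38 members were higher and 64 lower at 5 µM, 24 and 33 at 2.5 µM, and 41 and 47 between doses.

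Of the alternative fits of named genes, 2490 kept direction and call, 70 lost a call, 31 gained one and 43 changed sign. Signs changed in the following log2 fold changes. At 2.5 µM against control library size scaling gave 0.0253 for ZNF490, 0.0117 for ZNF528 and 0.0246 for ZNF473. Between doses it gave 0.000425 for ZNF611 and 0.0217 for TRIM28. GC correction gave -0.147 for ZNF274, -0.0776 for ZNF444 and -0.00658 for SETDB1 at 5 µM against control, and -0.141 for ZNF324, -0.186 for ZNF444, -0.216 for ZNF580 and -0.0468 for SETDB1 between doses. That correction also moved the median of all genes, to -0.13 at 5 µM against control and -0.102 between doses. ZNF580 was -0.0128 with no low count filter. ZNF91 between doses was 0.0364, 0.0534 and 0.0888 by RLE, upper quartile and library size, 0.0214 with the stricter filter, 0.00878 with the block, 0.179 with GC correction, 0.0121 with 2 groups and 0.0307 in DESeq2. Without 1 library, values at 2.5 µM against control ranged from -0.0895 to 0.0334 for ZNF473, -0.128 to 0.121 for ZNF490, -0.124 to 0.0832 for ZNF528, -0.199 to 0.0843 for ZNF611 and -0.536 to 0.0332 for ZNF91. ZNF91 ranged from -0.4 to 0.0252 at 5 µM against control. Between doses the ranges were -0.0383 to 0.0438 for ZNF580, -0.0339 to 0.138 for ZNF599 and -0.13 to 0.292 for ZNF91. None of these passed the test in the fit reported, except ZNF444 and SETDB1 at 5 µM and SETDB1 between doses.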
